A study of Mus musculus with 4 samples.

Results

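The genes described here encode the proteins of the cytosolic ribosome in mouse intestinal epithelial cells. They were taken from the platform annotation by symbol: every gene named Rpl or Rps with a number, together with Rplp0, Rplp1, Rplp2 and Rpsa, leaving out the Rps6k kinases and pseudogene symbols. This gave 66 of the 16593 annotated genes, carried by 84 of 25697 probes, with 40 genes of the large subunit and 26 of the small subunit by symbol. The symbol also takes in Rps19bp1, which encodes a protein that binds a small-subunit protein and is no part of the ribosome, and Rps23rg1, a retroposed copy of Rps23.

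The arrays came from 2 groups of C57BL/6 mice. The first was Csnk1a1_delta_gut Ifnar1-/- (2 arrays), which lacks a chain of the type I interferon receptor. The second was Csnk1a1_delta_gut Ifnar1+/+ (2 arrays), which the titles call WT but which has also lost Csnk1a1, the casein kinase 1 alpha gene, from the gut epithelium. All mice carried floxed Csnk1a1 and Vil1-Cre-ERT2, a recombinase driven by the villin promoter and switched on by tamoxifen (120 mg/kg, 2 injections), and cells were taken 5 days after the last injection. Genotypes were read at 4 weeks of age in all mice. Neither their age when cells were taken nor whether both samples of a genotype were separate animals is given in the labels, so that p-values measure only the spread between these samples. The growth protocol writes Ifnar1+/+ for both crosses, and the groups follow the titles and genotype labels. The tissue label reads colon, while by the protocol the cells came from small intestine. All 4 arrays detected 4 of 6 small intestine markers on the platform, and no array detected any of 3 colon markers. The probes for Ifnar1 and Csnk1a1 were not above background on any array, with detection p of at least 0.244, and so check neither genotype. Of 15 tested interferon-stimulated genes, 15 had a lower mean in the Ifnar1-/- arrays, 14 of them without overlap. Of all 8442 genes tested, 3969 had a lower mean, and 19.5% were lower without overlap.

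A ribosome joins a large subunit, which forms peptide bonds and holds the exit tunnel, to a small subunit, which reads the messenger RNA. Each ribosomal protein is present about once per ribosome, and cells keep their production balanced. Their messenger RNAs begin with a C followed by a run of pyrimidines, the terminal oligopyrimidine (TOP) tract, through which growth signals acting on the kinase mTOR set their translation. In the gut, dividing crypt cells make many ribosomes, and the cells differentiate as they move onto the villus.

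The start region is shown for 4 members because it carries the feature the family is known for. Rpl28, Rpl38 and Rps15a had both Ifnar1-/- arrays above both Ifnar1+/+ arrays, and Rps27 had overlapping groups. Each line runs from 60 bases before to 20 bases from the annotated start, on the strand of the gene, from RefSeq on GRCm38.p6. The windows are chr7:4792905-4792984 (+) for Rpl28, chr11:114668520-114668599 (+) for Rpl38, chr7:118116128-118116207 (-) for Rps15a and chr3:90213629-90213708 (-) for Rps27. Capitals mark the TOP tract at the start and, in Rpl38, the letters CCGGAAG, the core bound by ETS factors.
Rpl28: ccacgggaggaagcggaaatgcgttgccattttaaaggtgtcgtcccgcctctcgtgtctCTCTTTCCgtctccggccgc
Rpl38: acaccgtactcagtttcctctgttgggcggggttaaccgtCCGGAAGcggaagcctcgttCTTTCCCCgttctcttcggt
Rps15a: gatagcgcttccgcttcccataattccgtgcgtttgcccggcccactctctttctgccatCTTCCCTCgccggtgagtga
Rps27: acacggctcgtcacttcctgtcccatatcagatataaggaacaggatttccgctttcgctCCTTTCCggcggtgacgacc
The tracts are 8 bases long in the first 3 genes and 7 bases long in Rps27. All 4 were chosen for having a tract, after their values were seen.

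Of the 66 genes, 57 were matched to RefSeq start regions of 300 bases, with 68 entries in all. A TOP tract, taken as a C at the annotated start with at least 4 pyrimidines after it, was present in 16.2% of the member entries and in 2.51% of all 32851 entries. Annotated starts can lie beside the main start, so entries without it are not shown to lack it. Over 10 motifs searched, those other than the tract on both strands, CCGGAAG was present in 33.8% of member entries against 8.86% of all entries. AAGATGGC, the core of sites for the factor YY1, was present in 11.8% against 2.75%. A pair of GAAA blocks with 2 free bases between them, the core of the element through which interferon acts on its target genes, was present in 10.3% of member entries, 7 of 68, against 3.44% of all entries. The 6 tested members with that element (Rpl27a, Rpl38, Rpl4, Rpl5, Rps19 and Rps7) had a median log2 difference, Ifnar1-/- minus Ifnar1+/+, of 0.31, and the 42 matched and tested members without it 0.21. The 9 tested members with a TOP tract had a median of 0.23 and the 39 without it 0.20. For each of the other motifs searched, the median was lower with the motif than without it. It was 0.19 with CCGGAAG and 0.22 without it, and 0.16 with AAGATGGC and 0.22 without it. None of these gaps was tested. These matches describe letters in a window and no binding.

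Signals are bead intensities, background corrected, quantile normalized and given on a log2 scale, and differences are Ifnar1-/- minus Ifnar1+/+. A probe counted as above background where its detection p was under 0.05, and was kept where this held on at least 2 of the 4 arrays. Of the 84 member probes 67 were kept, 66 of them detected on all 4 arrays and 1 on 3. The remaining 17 probes had raw signals of 114.6 to 171.1, 15 of them detected on no array and 2 on 1 array. The brightest kept probe stood for a gene, so 56 members were tested, 33 of the large subunit and 23 of the small subunit. The 10 untested members were Rpl3l, Rpl6, Rpl14, Rpl17, Rpl22l1, Rpl39l, Rplp2, Rps23, Rps23rg1 and Rpsa. Of these, 6 encode regular ribosomal proteins that all cells need, so that a probe at background there is no measure of an absent messenger RNA. Precision is limited by how few arrays there are.

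The Ifnar1-/- arrays differed from each other more than the Ifnar1+/+ arrays did. Between the Ifnar1-/- arrays 623 of 8442 genes (7.38%) differed by more than 1 log2 unit, and between the Ifnar1+/+ arrays 143 genes (1.69%) did. Raw medians were 157.8 and 151.3 on the Ifnar1-/- arrays, against 145.3 and 143.5 on the Ifnar1+/+ arrays. Results on the ribosomal protein genes are therefore given by array.

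Ribosomal protein genes were higher on Ifnar1-/- array 1 and near the Ifnar1+/+ level on Ifnar1-/- array 2. Set against each gene's Ifnar1+/+ mean, the median member lay at 0.42 on Ifnar1-/- array 1 and 0.03 on array 2, and at 0.03 and -0.03 on the Ifnar1+/+ arrays. The median over both Ifnar1-/- arrays was 0.22 (quartiles 0.11 and 0.35), a 1.16-fold higher level, beside 0.03 over all genes tested. It was 0.03 without Ifnar1-/- array 1 and 0.42 without array 2. In such bulk samples more cells of a type and more messenger RNA per cell cannot be told apart.

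No member passed the test of limma, 0 of 56 at an adjusted p under 0.05, as 0% of all 8442 genes did in either direction. The smallest adjusted p among members was 0.499, for Rpl21, which was also the 1 member with an unadjusted p under 0.05. Of all genes 9.52% had such a p, and 4.25% had one with a higher mean in the Ifnar1-/- arrays, as Rpl21 did. The mean was higher in the Ifnar1-/- arrays for 53 of 56 members (94.6%) and for 53% of all genes. Both Ifnar1-/- arrays lay above both Ifnar1+/+ arrays for 22 of 56 members (39.3%) and for 23.9% of all genes. Both lay below for 0 members and for 19.5% of all genes.

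The share of members above the controls differed between the Ifnar1-/- arrays. Array 1 lay above both Ifnar1+/+ arrays for 51 of 56 members, beside 42.9% of all genes, and it was the highest of the 4 arrays for 50 members, beside 34.3% of all genes. Array 1 lay above array 2 for 53 members, beside 49.3% of all genes, and by at least 0.25 for 36 members, beside 30.8% of all genes. Array 2 lay above both Ifnar1+/+ arrays for 24 of 56 members (42.9%), a share near the 39.8% of all genes, and below the Ifnar1+/+ mean for 23. The difference from the Ifnar1+/+ mean ran over members from -0.15 to 1.48 on array 1 and from -0.39 to 0.69 on array 2. The Ifnar1+/+ arrays differed from each other by -0.35 to 0.49. Across the 56 members the differences on the 2 Ifnar1-/- arrays had a Pearson r of 0.06, although both are taken from the same Ifnar1+/+ mean.

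**Figure D1:**
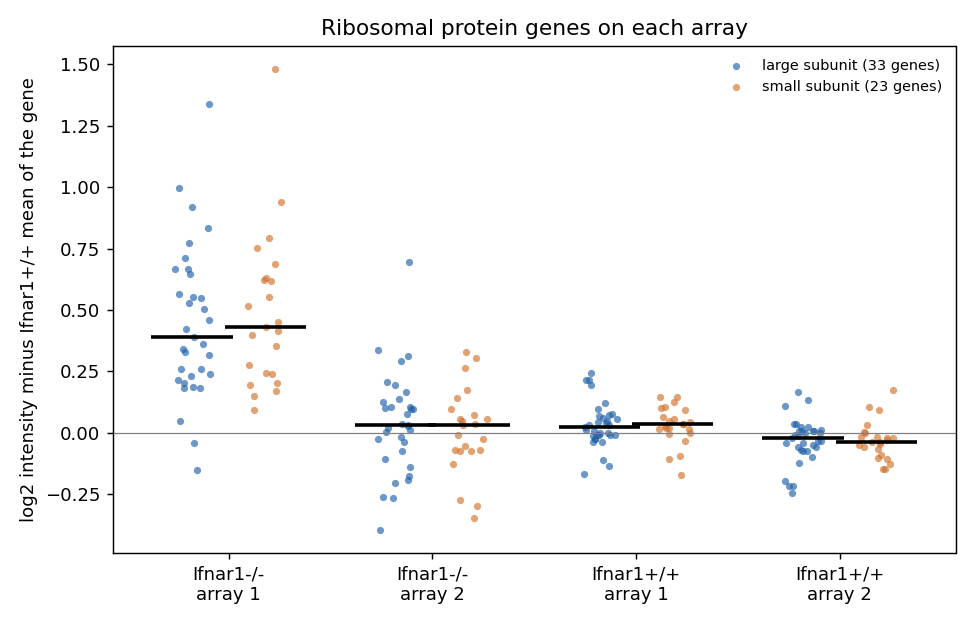
Log2 intensity of each of the 56 tested ribosomal protein genes on each array, less the gene's mean over the Ifnar1+/+ arrays; points are genes, blue for the large and orange for the small subunit, and black lines are medians. The medians on Ifnar1-/- array 1 are 0.39 (large) and 0.43 (small), and those on the other 3 arrays lie between -0.04 and 0.04.

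The 2 subunits were set against each other to see whether one moved without the other. Large-subunit genes had a median of 0.39 on Ifnar1-/- array 1 and 0.03 on array 2, and of 0.02 and -0.02 on the Ifnar1+/+ arrays. Small-subunit genes had a median of 0.43 on Ifnar1-/- array 1 and 0.03 on array 2, and of 0.04 and -0.04 on the Ifnar1+/+ arrays. The large less the small median was thus -0.04 and 0.00 on the Ifnar1-/- arrays, against -0.01 and 0.01 on the Ifnar1+/+ arrays. With quantile normalization both subunits stood apart on the same single array, and the gap between them was no wider than 0.04 log2 on any array.

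Counts were close for both subunits too. Of the large-subunit genes 30 of 33 had a higher mean in the Ifnar1-/- arrays, 13 of them (39.4%) without overlap, with a median difference of 0.21. Of the small-subunit genes 23 of 23 had a higher mean, 9 of them (39.1%) without overlap, with a median difference of 0.23. The difference between these medians was -0.01. Among all genes 53% had a higher mean and 23.9% were higher without overlap. When arrays were scaled to a common median in place of quantile normalization, the small-subunit median was 0.11 and the large-subunit median 0.16, a difference of 0.05. With that scaling the medians on Ifnar1-/- array 1 were 0.32 (large) and 0.35 (small), and on array 2 they were -0.03 and -0.12.

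Within the large subunit the 5 genes with the smallest p were Rpl21, Rpl37, Rpl19, Rpl28 and Rpl3, and the 2 groups did not overlap for any of them. Rpl21, which encodes a large-subunit protein, had 6.96 and 6.74 on the Ifnar1-/- arrays, against 6.29 and 5.80 on the Ifnar1+/+ arrays. Its log2 difference was 0.81 ± 0.26 (SE, n = 2 per group; limma adjusted p = 0.499). Of the 56 members it had the largest difference in this setting, and array 2 lay 0.69 above the Ifnar1+/+ mean. The gene is dim, and its difference was 0.34 without background correction and 0.34 with the deposited normalized values. Many members were larger in both, among them Rpl12 (0.54 in both), Rps4x (0.54 in both), Rpl19 (0.49 in both) and Rpl5 (0.36 in both). Rplp0, Rps3a1, Rpl28, Rpl37, Rpl3 and Rps19 were larger in both too. Rpl21 did not pass the stricter detection filter.

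Rpl37, a zinc-binding protein of the large subunit, had 14.94 and 14.75 on the Ifnar1-/- arrays, against 14.41 and 14.42 on the Ifnar1+/+ arrays. It differed by 0.43 ± 0.22 (SE; limma adjusted p = 0.558), and both Ifnar1-/- arrays were clear of the Ifnar1+/+ arrays, which lay together. Rpl3, which lies near the site where peptide bonds form, had 14.45 and 14.23 on the Ifnar1-/- arrays, against 14.06 and 13.82 on the Ifnar1+/+ arrays, a difference of 0.40 ± 0.24 (SE; adjusted p = 0.601).

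Rpl19 and Rpl28 leaned more on array 1. Rpl19, which reaches from the large subunit toward the small one, had 11.84 and 11.20 on the Ifnar1-/- arrays, against 11.01 and 10.99 on the Ifnar1+/+ arrays, a difference of 0.51 ± 0.28 (SE; limma adjusted p = 0.577). Rpl28 had 14.05 and 13.55 on the Ifnar1-/- arrays, against 13.32 and 13.37 on the Ifnar1+/+ arrays, a difference of 0.46 ± 0.26 (SE; adjusted p = 0.588). Rpl38, known in mouse for a role in the translation of Hox messenger RNAs, had 15.07 and 15.0 on the Ifnar1-/- arrays, against 14.57 and 14.79 on the Ifnar1+/+ arrays. It is named for its start region shown above, and was chosen after its values were seen.

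The acidic stalk, which recruits translation factors to the large subunit, is built of Rplp0, Rplp1 and Rplp2 on a base that includes Rpl12. Rplp0 had 9.65 and 8.14 on the Ifnar1-/- arrays, against 8.34 and 8.28 on the Ifnar1+/+ arrays. Its array 2 value was the lowest of the 4, so that its log2 difference of 0.58 ± 0.47 (SE) rests on array 1 alone. Rpl12 had 13.34 and 12.46 on the Ifnar1-/- arrays, against 12.40 and 12.30 on the Ifnar1+/+ arrays, a difference of 0.55 ± 0.33 (SE). Rplp1 had 15.36 and 15.27 on the Ifnar1-/- arrays, against 15.25 and 15.10 on the Ifnar1+/+ arrays, and differed by 0.14 ± 0.22 (SE). The partners Rplp0 and Rplp1 thus had unequal profiles, and none of the 3 passed the test. The Rplp1 probe is far brighter than that of Rplp0. Across the 56 members mean log2 intensity and difference had a Pearson r of -0.35. The part of brightness in the unequal profiles was not tested. Rplp2 was not above background on any array. Rpl5, which with Rpl11 carries the smallest RNA of the large subunit and can hold back the p53 inhibitor Mdm2, had 13.25 and 12.44 on the Ifnar1-/- arrays, against 12.52 and 12.44 on the Ifnar1+/+ arrays. Array 2 lay at the Ifnar1+/+ level.

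Among the large-subunit genes, 3 had the smallest differences. Rpl31, near the exit tunnel, had 13.46 and 13.08 on the Ifnar1-/- arrays, against 13.49 and 13.06 on the Ifnar1+/+ arrays, a difference of -0.002 ± 0.27 (SE). Rpl39, a small protein that lines the tunnel, had 13.90 and 13.42 on the Ifnar1-/- arrays, against 13.90 and 13.47 on the Ifnar1+/+ arrays, a difference of -0.02 ± 0.28 (SE). For both genes array 1 was higher than array 2 in each group. Rpl23 had 15.27 and 15.53 on the Ifnar1-/- arrays, against 15.42 on both Ifnar1+/+ arrays, a difference of -0.02 ± 0.23 (SE). The raw signals of this very bright probe were 44216.9 and 38204.6 on the Ifnar1+/+ arrays, made equal by quantile normalization. Dimmer kept probes of Rpl23 differed by 0.19 and 0.64.

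In the small subunit, Rps3a1, which encodes a protein near the messenger RNA exit, had 8.33 and 6.90 on the Ifnar1-/- arrays, against 6.89 and 6.81 on the Ifnar1+/+ arrays. Its difference of 0.76 ± 0.45 (SE; limma adjusted p = 0.601) came from array 1, and array 2 lay 0.048 above the Ifnar1+/+ mean. The difference was 0.47 without background correction and 0.47 with the deposited normalized values. Rps4x, an X-linked small-subunit gene, had 14.54 and 13.74 on the Ifnar1-/- arrays, against 13.64 and 13.56 on the Ifnar1+/+ arrays, a difference of 0.54 ± 0.31 (SE; adjusted p = 0.592). Here too array 1 held most of the difference.

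Rps19 and Rps15a were more even between the Ifnar1-/- arrays. Rps19, the gene most often mutated in the human inherited anaemia of Diamond and Blackfan, had 14.31 and 14.05 on the Ifnar1-/- arrays, against 13.92 and 13.66 on the Ifnar1+/+ arrays, a difference of 0.39 ± 0.24 (SE; limma adjusted p = 0.608). Rps15a had 8.79 and 8.85 on the Ifnar1-/- arrays, against 8.41 and 8.62 on the Ifnar1+/+ arrays, a difference of 0.30 ± 0.23 (SE; adjusted p = 0.662). Of the 56 members it was 1 of 3 that were lower on Ifnar1-/- array 1 than on array 2.

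The smallest small-subunit differences belonged to Rps7, Rps27 and Rps9. Rps7 had 11.33 and 11.01 on the Ifnar1-/- arrays, against 11.15 and 11.12 on the Ifnar1+/+ arrays. Rps27 had 13.05 and 12.82 on the Ifnar1-/- arrays, against 12.89 and 12.90 on the Ifnar1+/+ arrays. Rps9 had 12.92 and 12.29 on the Ifnar1-/- arrays, against 12.59 and 12.54 on the Ifnar1+/+ arrays. In all 3 the Ifnar1-/- arrays lay on either side of the Ifnar1+/+ arrays, with array 1 above and array 2 below, and their differences were 0.04 ± 0.24, 0.04 ± 0.23 and 0.04 ± 0.28 (SE).

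**Figure D2:**
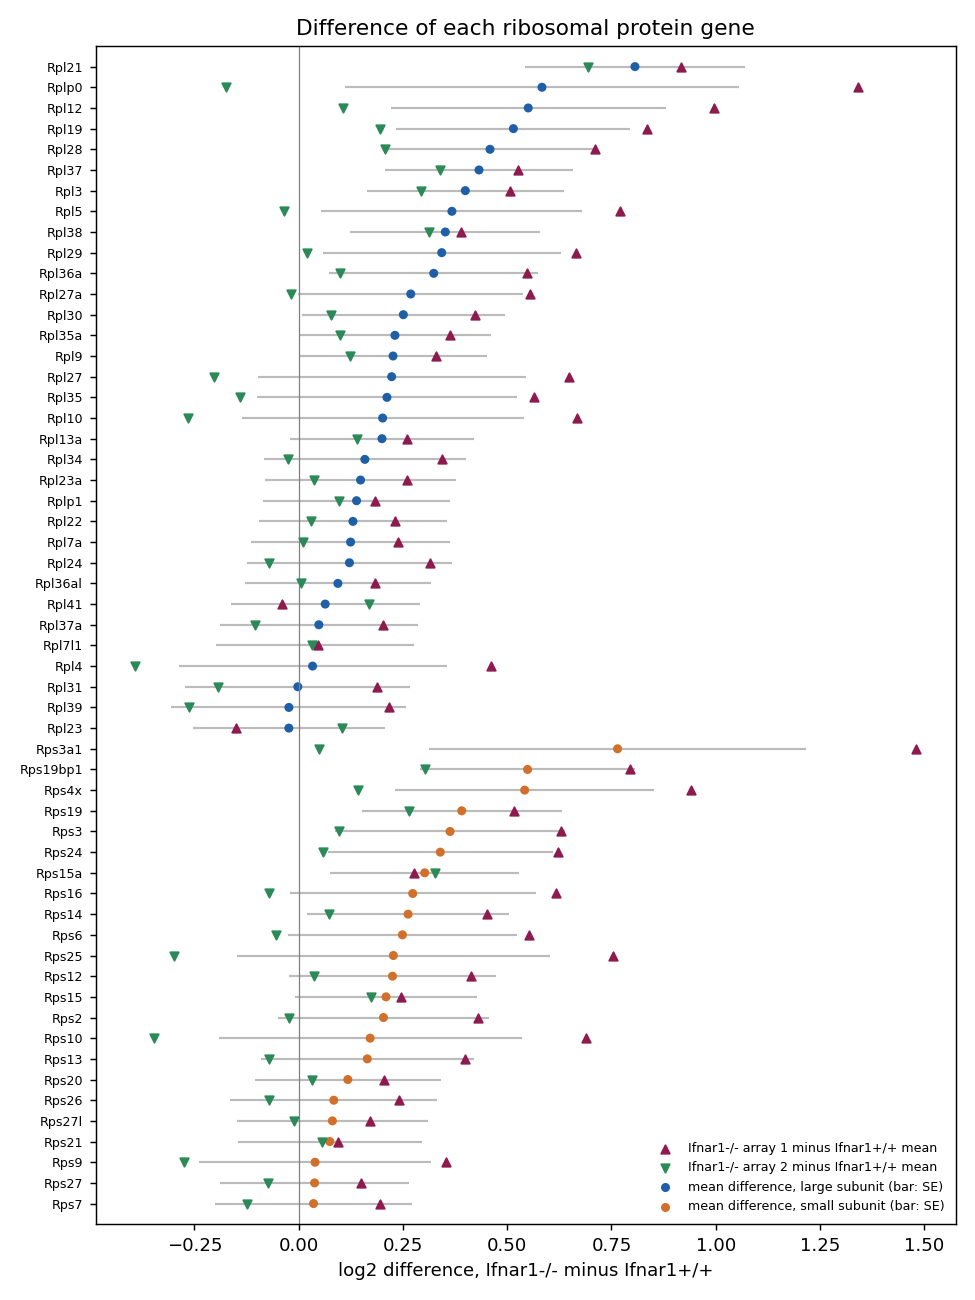
Log2 difference of each of the 56 tested genes, Ifnar1-/- minus Ifnar1+/+, large subunit above and small subunit below; circles with bars are the mean difference and its SE, upward triangles Ifnar1-/- array 1 and downward triangles Ifnar1-/- array 2, each less the Ifnar1+/+ mean. The upward triangle lies to the right of the downward one in 53 of 56 genes, and 23 of the downward triangles lie below 0.

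Medians by role are given for the roles with at least 3 tested members besides the paralogs. The 3 stalk members stood at 0.99 on Ifnar1-/- array 1 and 0.10 on array 2, with 0.05 and -0.05 for the Ifnar1+/+ arrays. The 6 members at the peptide exit site stood at 0.36 on Ifnar1-/- array 1 and -0.17 on array 2, with 0.13 and -0.13 for the Ifnar1+/+ arrays. The 3 members along the messenger RNA path stood at 0.43 on Ifnar1-/- array 1 and -0.02 on array 2, with 0.15 and -0.15 for the Ifnar1+/+ arrays. Array 1 was above both Ifnar1+/+ arrays in each role, while array 2 was above both for the stalk, below both for the exit site and between them for the messenger RNA path. The 7 tested genes of those mutated in the human anaemia all had a higher mean, 3 without overlap, beside 39.3% of all members and 23.9% of all genes. They stood at 0.52 on Ifnar1-/- array 1 and -0.04 on array 2, and array 2 lay within the spread of the Ifnar1+/+ arrays, 0.05 and -0.05.

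Paralogs of ribosomal proteins can take the place of a regular protein or act outside the ribosome. The 3 tested had small differences, but so had many regular members. Of all 56 members, these 3 included, 34 had an absolute difference under 0.25. Rps27l, a close relative of Rps27 and a known p53 target, had 14.53 and 14.34 on the Ifnar1-/- arrays, against 14.26 and 14.45 on the Ifnar1+/+ arrays, a difference of 0.08 ± 0.23 (SE). Rpl36al differed by 0.09 ± 0.22 and Rpl7l1, which acts in ribosome assembly, by 0.04 ± 0.24 (SE). The groups overlapped in all 3. Of the other paralogs with a probe, Rpl22l1 was above background on Ifnar1-/- array 1 alone and Rpl3l and Rpl39l on none. Rps19bp1, which is no ribosomal protein, had 7.79 and 7.30 on the Ifnar1-/- arrays, against 7.02 and 6.97 on the Ifnar1+/+ arrays. It had the smallest p among the genes with a small-subunit symbol, with a difference of 0.55 ± 0.26 (SE; limma adjusted p = 0.540), which was 0.32 without background correction and 0.32 with the deposited normalized values. Without the paralogs and Rps19bp1 the median of the remaining 52 members was 0.22.

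Different probes of a gene did not always give the same value. Several kept probes stood for each of 10 members, and in 5 of these the probes pointed in opposite directions, by more than 0.5 in 2 members. For Rps19 the brightest probe is the one given above, while the other had 6.46 and 5.95 on the Ifnar1-/- arrays, against 6.52 and 6.49 on the Ifnar1+/+ arrays, a difference of -0.30 ± 0.26 (SE). With the mean of both probes Rps19 differed by 0.047. For Rpl23 the 3 kept probes differed by -0.02, 0.19 and 0.64. The probe at 0.64 had 9.78 and 9.67 on the Ifnar1-/- arrays, against 9.08 and 9.09 on the Ifnar1+/+ arrays, and an unadjusted p of 0.026, with a limma adjusted p of 0.506 over all 11884 probes. The Ifnar1-/- arrays lay together there and well above the Ifnar1+/+ arrays, which the brightest probe of Rpl23 does not show. Ribosomal protein genes have many processed pseudogenes, and the probe sequences were not used here, so signal from copies cannot be told apart from that of the gene.

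**Figure D3:**
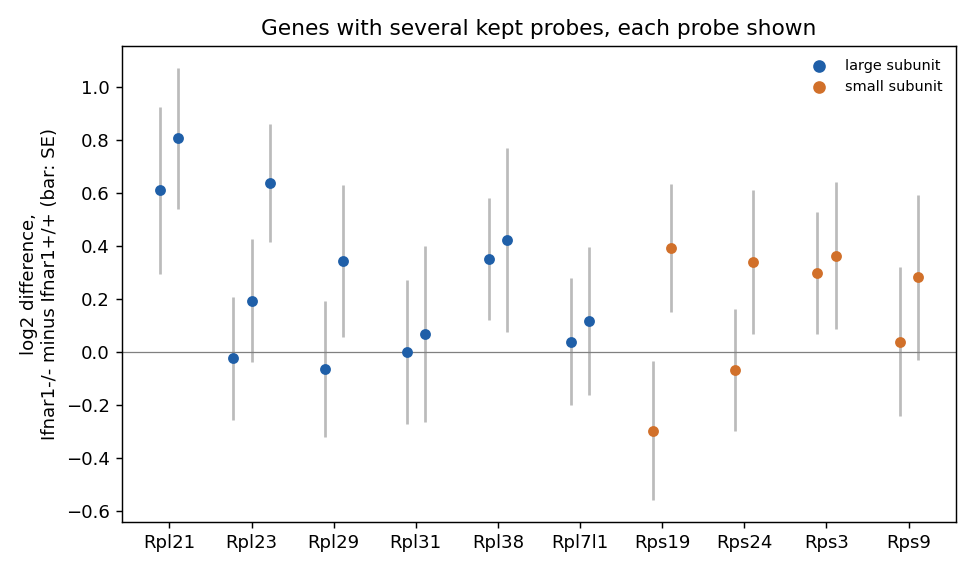
Log2 difference, Ifnar1-/- minus Ifnar1+/+, of every kept probe of the 10 ribosomal protein genes with several kept probes; each point is a probe with its SE, blue for the large and orange for the small subunit. The probes of Rpl23 run from -0.02 to 0.64 and those of Rps19 from -0.30 to 0.39.

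Other genes that serve translation moved with the ribosomal proteins on array 1. Other messenger RNAs with a TOP tract, such as those of elongation factors, had a median of 0.80 on Ifnar1-/- array 1 and 0.07 on array 2, with 0.02 and -0.02 for the Ifnar1+/+ arrays. Of the 15 tested, 15 had a higher mean, 7 without overlap, with 0 past the test and a median difference of 0.34. Over all genes the shares were 53% with a higher mean and 23.9% higher without overlap. Pabpc1, the poly(A)-binding protein, had 10.68 and 10.28 on the Ifnar1-/- arrays, against 9.80 and 9.77 on the Ifnar1+/+ arrays, a difference of 0.70 ± 0.25 (SE; limma adjusted p = 0.499). Hnrnpa1, an RNA-binding protein of splicing, had 9.91 and 8.48 on the Ifnar1-/- arrays, against 8.27 and 7.85 on the Ifnar1+/+ arrays.

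Factors that assemble ribosomes in the nucleolus were higher on both Ifnar1-/- arrays, with medians of 0.44 and 0.20, against 0.01 and -0.01 on the Ifnar1+/+ arrays. Of 53 tested, 45 had a higher mean, 33 without overlap, and 0 passed the test. Of all genes, 53% had a higher mean and 23.9% were higher without overlap. Nolc1, a chaperone of small nucleolar particles, had 6.24 and 5.80 on the Ifnar1-/- arrays, against 5.10 and 5.04 on the Ifnar1+/+ arrays. Brix1, needed to build the large subunit, had 11.46 and 11.18 on the Ifnar1-/- arrays, against 10.5 and 10.53 on the Ifnar1+/+ arrays. Their differences were 0.95 ± 0.25 and 0.80 ± 0.23 (SE; limma adjusted p = 0.492 for each). On array 2 the median assembly factor thus stood at 0.20 and the median ribosomal protein gene at 0.03; the difference between the lists was not tested.

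RNA polymerase I, which makes ribosomal RNA, had 9 genes tested, 7 of them with a higher mean, and medians of 0.30 and 0.07 on the Ifnar1-/- arrays, against -0.01 and 0.01 on the Ifnar1+/+ arrays. Cd3eap, a subunit gene, differed by 0.51 ± 0.27 and Polr1a, the largest subunit, by 0.37 ± 0.22 (SE). Translation initiation factors had 18 of 21 with a higher mean and medians of 0.48 and 0.07 on the Ifnar1-/- arrays, against -0.01 and 0.01 on the Ifnar1+/+ arrays, with Eif1a at 0.53 ± 0.28 and Eif3l at 0.47 ± 0.28 (SE). Mitochondrial ribosomal proteins, which form a separate ribosome, had 53 of 69 with a higher mean and medians of 0.27 and 0.03 on the Ifnar1-/- arrays, against -0.02 and 0.02 on the Ifnar1+/+ arrays. Mrpl37 differed by 0.48 ± 0.23 and Mrps35 by 0.43 ± 0.23 (SE). In each of these 3 lists 0 genes passed the test, and array 2 lay near the Ifnar1+/+ arrays. The mean was higher in the Ifnar1-/- arrays for 53% of all genes.

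Genes that control growth and ribosome production showed no common direction, with 7 of 13 higher, 6 lower and a median of 0.03. Ddit4, an inhibitor of mTOR signalling, had 9.75 and 9.86 on the Ifnar1-/- arrays, against 9.20 and 9.17 on the Ifnar1+/+ arrays, a difference of 0.62 ± 0.22 (SE; limma adjusted p = 0.499). Rps6kb2, a kinase of the small-subunit protein S6, differed by -0.54 ± 0.24 (SE). Of 11 genes of p53 and its targets, 6 had a higher and 5 a lower mean. Sesn1 differed by -0.60 ± 0.23 and Cdkn1a by -0.64 ± 0.30 (SE), and in neither list did a gene pass the test (0 genes).

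Lists of cell markers differed in which Ifnar1-/- array lay farthest from the Ifnar1+/+ arrays. Proliferation genes stood at medians of 0.89 and 0.35 in the Ifnar1-/- arrays, against -0.10 and 0.10 on the Ifnar1+/+ arrays, with 13 of 13 higher. Absorptive enterocyte markers stood at medians of -1.32 and -0.46 in the Ifnar1-/- arrays, against -0.08 and 0.08 on the Ifnar1+/+ arrays, with 11 of 12 lower. Their summed log2 level was 16.03 and 16.86 on the Ifnar1-/- arrays, against 17.18 and 17.04 on the Ifnar1+/+ arrays, and Fabp1 and Fabp2 were detected on no array. Markers of T cells and intraepithelial lymphocytes had 8 of 8 lower and summed log2 levels of 8.51 and 9.21 on the Ifnar1-/- arrays, against 10.28 and 10.04 on the Ifnar1+/+ arrays. Cd2, Cd7, Cd8a, Gzma, Gzmb and Ptprc were detected on no array. In these 3 lists, and in the Paneth markers (0.94 and 0.45 in the Ifnar1-/- arrays, against 0.03 and -0.03 in the Ifnar1+/+ arrays), Ifnar1-/- array 1 lay farthest from the Ifnar1+/+ arrays, as it did for the ribosomal proteins. On array 2 these lists lay beyond both Ifnar1+/+ arrays too, with T cell markers at a median of -1.01. The median ribosomal protein gene stood at 0.03 there. Enterocyte and T cell markers were lower, while ribosomal protein genes were higher. Array 1 also lay farthest by median for epithelium markers, -0.60 and -0.06 in the Ifnar1-/- arrays, against 0.07 and -0.07 in the Ifnar1+/+ arrays, with 5 of 6 lower. The same held for small intestine markers (-0.44 and 0.05 in the Ifnar1-/- arrays) and the 2 tested macrophage and dendritic markers (-1.61 and -0.85). By median, array 2 lay farthest for other lists, among them B and plasma cell markers (2 tested) and red blood cell markers (1 tested). Goblet markers stood at 0.13 and -0.74 in the Ifnar1-/- arrays, against 0.05 and -0.05 in the Ifnar1+/+ arrays. Enteroendocrine markers stood at 0.10 and -0.29 in the Ifnar1-/- arrays, against 0.05 and -0.05 in the Ifnar1+/+ arrays, with 6 of 7 lower. Their summed log2 level was 12.19 and 12.57 on the Ifnar1-/- arrays, against 12.76 and 12.66 on the Ifnar1+/+ arrays. By that sum array 1 lay farthest. Stem cell markers stood at 0.10 and 0.38 in the Ifnar1-/- arrays, against -0.05 and 0.05 in the Ifnar1+/+ arrays. Fibroblast and smooth muscle markers stood at -1.24 and -1.69 in the Ifnar1-/- arrays, against 0.83 and -0.83 in the Ifnar1+/+ arrays. In the goblet, enteroendocrine, stem cell and fibroblast lists array 1 thus did not lie farthest by median. The part of these markers in the ribosomal protein result was not tested.

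**Figure D4:**
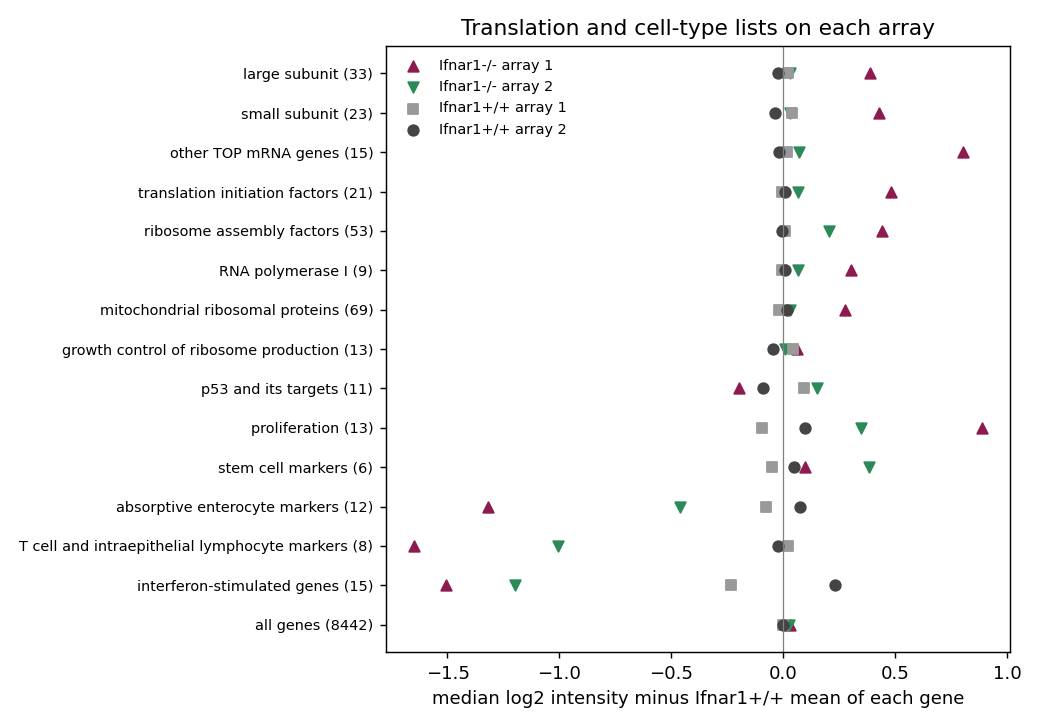
Median log2 intensity of each list on each array, less each gene's Ifnar1+/+ mean, with the number of tested genes in brackets; upward triangles are Ifnar1-/- array 1, downward triangles Ifnar1-/- array 2, squares and circles the Ifnar1+/+ arrays. Both subunits lie at 0.39 and 0.43 on Ifnar1-/- array 1 and at 0.03 on array 2, while ribosome assembly factors lie at 0.44 and 0.20.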

How the data were processed

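Gene expression was measured on 4 Illumina bead arrays of 1 chip, where chip position follows genotype, so that the 2 cannot be told apart. The raw intensity of each probe was deposited unscaled; the submitters' processing notes name GenomeStudio 1.8. Detection p-values, deposited beside them, tell whether a probe is above the array's background. The deposited normalized intensity values, scaled by a method not given in the sources used here, served as an alternative. With neqc, raw intensities were corrected for the background that the detection p-values imply, quantile normalized and given as log2 values (offset 16, which pulls differences of dim genes toward 0), in limma 3.58.1 and R 4.3.3. Of the 25697 probes, 23978 had 1 symbol and 1719 had none. The 11884 kept probes gave 8442 genes. Groups were compared over all genes with lmFit and eBayes, two-sided, adjusted by Benjamini-Hochberg, with 2 residual and 4.54 prior degrees of freedom. No p is given for a value summed over members. The fit was tested on simulated data.

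The members, lists and start-region motifs were chosen with earlier results of these data known. Named genes were those of the stalk and of the particle of Rpl5 and Rpl11, the paralogs, Rps19bp1, the 5 smallest p and the 3 largest and 3 smallest differences per subunit, members whose probes disagreed in direction by more than 0.5, and the 2 smallest p of each translation list. Other settings tried were uncorrected intensities, an offset of 50, median scaling with or without the members, the deposited normalized values, and no detection filter or a stricter one (p under 0.01 on each array). Probes were also averaged by gene or tested singly, and moderation used an intensity trend or a robust fit. An adjusted p under 0.1, a replicate block, core members alone and the removal of each array completed them. Figures used matplotlib 3.10.9 (Python 3.11.15).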

Additional observations from a re-analysis of the deposited data

How the results depend on the processing

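Under the 17 settings other than the one reported, the count of members past the threshold was 0. Over all genes it was 0 to 14 with an array left out (5 without Ifnar1+/+ array 1 and 14 without Ifnar1+/+ array 2) and 0 otherwise. The median of the ribosomal protein genes ranged from 0.031 without Ifnar1-/- array 1 to 0.42 without Ifnar1-/- array 2, so that array 1 decides it. It was 0.15 with median scaling, where 48 of 56 members were higher. The large less the small median ranged from -0.040 to 0.032 with an array left out, and was 0.052 with median scaling over all kept probes and 0.052 over probes that are no member. With median scaling, Rps27 was at -0.026, Rps27l at -0.10 and Rps9 at -0.0054, and with the members left out of it Rps27 was at -0.019 and Rps27l at -0.092. With the mean of a gene's probes Rpl23 was at 0.27 and Rpl31 at 0.033. The cause was not tested. With an array left out, Rpl5 ran from -0.036 to 0.77, Rplp0 from -0.17 to 1.34, Rpl7l1 from -0.13 to 0.21, Rpl23 from -0.15 to 0.10, Rpl31 from -0.22 to 0.21, Rpl39 from -0.26 to 0.22, Rps7 from -0.12 to 0.20, Rps9 from -0.27 to 0.35, Rps27 from -0.073 to 0.15 and Rps27l from -0.012 to 0.17. The group of 1 array is then assumed to vary like the other. Same-numbered arrays deviated from their group means with a correlation of -0.05 over genes. With 2 arrays per group, that value cannot show whether the numbers pair the arrays. With the replicate number as a block 0 genes passed, and the median of 0.22 was unchanged by construction. Dim members depended on the background correction, with Rpl21 at 0.34, Rps19bp1 at 0.32 and Rps3a1 at 0.47 without it.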
